A study of Mus musculus with 4 samples.

Results

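The PI3K, Akt and mTOR genes described here were 9 named genes, taken as the rows with the status OK in the authors' deposited table of CD5 high against CD5 low effector T cells. All 9 had such a row, so none was absent, and they are 9 of the 7252 genes tested in that table. They are Pik3cd, Pik3r1, Inpp5d, Akt1, Akt2, Mtor, Tsc1, Tsc2 and Rheb. The cells came from NOD.Foxp3-GFP mice aged 6 to 9 weeks, a non-obese diabetic strain with a fluorescent reporter for Foxp3 that both groups carry. Per the labels, the tissue is given as islets and spleen together, the library titles name islets, and each group has 2 libraries, numbered 3 and 4 in both groups. Neither the labels nor the file headers say what a shared number marks, or if the test of the authors took it into account. The sources used here do not give whether cells of several mice were pooled. RNA sequencing compared cells with high and with low surface CD5, a protein whose level follows the strength of self-recognition by the T cell receptor. The table gives 1 combined FPKM value per group (fragments per kilobase of transcript, scaled to the fragments sequenced), so no SD or n belongs to any value below, and the depth is unknown. In a bulk sample, fewer cells of a type and less RNA per cell cannot be told apart.

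Phosphoinositide 3-kinase (PI3K) is recruited to the T cell receptor and to costimulatory receptors, where it phosphorylates a membrane lipid that docks the kinase Akt. Active Akt inhibits the Tsc complex, which otherwise holds the small GTPase Rheb inactive, and Rheb then switches on mTORC1, the mTOR complex that drives protein synthesis and metabolism. A second complex, mTORC2, phosphorylates Akt in turn. In T cells the pathway is known for its part in growth, in the choice between effector and regulatory fates and in the export of the transcription factor Foxo1 from the nucleus. It is controlled largely by phosphorylation, which RNA levels do not measure.

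None of the 9 genes changed at the authors' q under 0.05 (q from 0.662 to 0.990), and none had an unadjusted p under 0.05 (smallest p = 0.160). Over all tested genes, 55 of 7252, or 0.758%, passed q under 0.05, of which 0.538% of tested genes were higher and 0.221% lower in CD5 high, and 10.3% had an unadjusted p under 0.05. With 9 genes, a count of 0 lies close to what these shares give. In the authors' deposited table the value was lower in CD5 high for 7 of the 9 genes and higher for 2, Akt2 and Tsc2. Over all tested genes 50.9% were lower in CD5 high. Among the 7, Inpp5d, Akt1 and Rheb each had a log2 fold change of only -0.02. Mtor, at 5.92 FPKM in CD5 high, lay there under the lowest level covered (6.82 FPKM). With that value, Mtor could enter the table only as lower in CD5 high. The count of 7 therefore does not show a shared downward difference. The median log2 fold change of the 9 genes was -0.02, against -0.01 over all tested genes, and their median absolute log2 fold change was 0.12, against 0.24. The largest difference in either direction, with no pseudocount, was 1.30-fold, for Mtor.

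**Figure D1:**
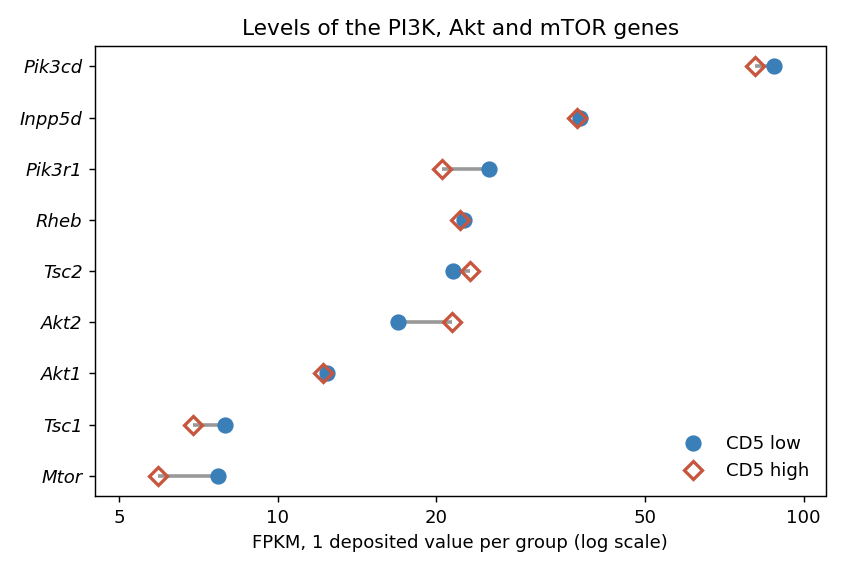
FPKM of the 9 genes in CD5 low (filled circles) and CD5 high (open diamonds), on a log axis, with 1 deposited value per group and gene and no error available. Pik3cd stands highest in both groups and Mtor lowest, and the largest gap between the groups is 1.30-fold.

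Pik3cd, which encodes the p110-delta catalytic subunit that dominates PI3K signalling in lymphocytes, stood at 87.9 FPKM for CD5 low against 80.8 FPKM for CD5 high of the authors' deposited table (log2 fold change -0.12, p = 0.513, q = 0.876). Its level was above that of 87.3% of tested genes. Pik3r1, the gene of the p85-alpha regulatory subunit that stabilises the catalytic subunit and brings it to phosphorylated receptors, had 25.2 and 20.5 FPKM in the authors' deposited table (log2 fold change -0.30, p = 0.160, q = 0.662). Per unit of length, the level of Pik3cd was 3.49 times that of its regulatory partner in CD5 low and 3.94 times in CD5 high. Pik3ca, which encodes the broadly expressed catalytic subunit p110-alpha, had 11.4 and 14.1 FPKM by the authors' deposited table (q = 0.682). Pik3cd therefore made up 88.5% of the summed Pik3cd and Pik3ca FPKM in CD5 low and 85.2% in CD5 high. The catalytic subunit genes Pik3cb and Pik3cg are not analysed here.

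Inpp5d encodes SHIP-1, a lipid phosphatase of blood cells that removes a phosphate from the product of PI3K. By the authors' deposited table it had 37.6 FPKM for CD5 low against 37.0 FPKM for CD5 high, a log2 fold change of -0.02 (p = 0.907, q = 0.981). Both group values were nearly equal. The paralog Inppl1 (SHIP-2) had 6.29 and 9.21 FPKM in the authors' deposited table (q = 0.565).

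Akt1 and Akt2 encode kinases of the same family; in mice Akt1 is linked to growth and survival and Akt2 to glucose uptake in response to insulin. Akt1 had 12.4 FPKM for CD5 low against 12.2 FPKM for CD5 high by the authors' deposited table (log2 fold change -0.02, p = 0.944, q = 0.989). For Akt2 the authors' deposited table gave 16.9 and 21.5 FPKM (log2 fold change 0.34, p = 0.218, q = 0.713), the larger of the upward differences among the 9 genes. Per unit of length, the level of Akt2 was 1.36 times that of Akt1 in CD5 low and 1.76 times in CD5 high. The difference between these ratios was not tested, since the table holds 1 value per group.

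Tsc1 and Tsc2 encode the partners of the complex that restrains Rheb: Tsc2 carries the GTPase-activating activity and Tsc1 stabilises it. The authors' deposited table lists Tsc1 at 7.93 FPKM for CD5 low against 6.90 FPKM for CD5 high (log2 fold change -0.20, p = 0.452, q = 0.849) and Tsc2 at 21.6 and 23.3 FPKM (log2 fold change 0.11, p = 0.718, q = 0.942). The genes of these partners thus differed in opposite directions, neither past the test, and the level of Tsc2 was 2.72 times that of Tsc1 in CD5 low and 3.37 times in CD5 high. Rheb, the GTPase that activates mTORC1, had 22.6 and 22.3 FPKM in the authors' deposited table (log2 fold change -0.02, p = 0.950, q = 0.990). It showed the smallest difference of the 9 genes.

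Mtor encodes the kinase shared by mTORC1 and mTORC2. By the authors' deposited table its values were 7.71 FPKM for CD5 low against 5.92 FPKM for CD5 high, a log2 fold change of -0.38 (p = 0.161, q = 0.662). As deposited, this was the largest difference among the 9 genes and larger in size than that of 69.5% of tested genes. With a pseudocount of 5 FPKM it was -0.22 on the log2 scale, smaller in size than those of Akt2 (0.27) and Pik3r1 (-0.24). It was also the gene with the lowest level, above only 3.50% of tested genes. Every gene tested in the table reached at least 6.82 FPKM in one group, so Mtor and Tsc1 lie close to the lowest level that the table covers. Of the 9 genes only Mtor had a value below that level, in CD5 high, so it was covered through CD5 low alone. At this CD5 high value, Mtor could be listed only with the higher value in CD5 low.

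In CD5 low the order of FPKM levels, from highest to lowest, was Pik3cd, Inpp5d, Pik3r1, Rheb, Tsc2, Akt2, Akt1, Tsc1 and Mtor in the authors' deposited table. In CD5 high Pik3r1 moved from place 3 to place 6, behind Tsc2, Rheb and Akt2, while Pik3cd, Inpp5d, Rheb, Akt1, Tsc1 and Mtor kept their places. With 1 value per group it cannot be said which neighbours in this order differ beyond their spread. The genes of the middle of the order, Pik3r1, Rheb, Tsc2 and Akt2, lay between 16.9 and 25.2 FPKM in both groups of that table. The 9 genes summed to 240 FPKM for CD5 low against 230 FPKM for CD5 high, and 5 of them lay above the median level of tested genes (20.5 FPKM, mean of the groups).

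A gene that misses the threshold is not shown to be equal in both groups. The smallest differences that the authors' test called at each level give the scale against which these values can be read. Among the 1428 tested genes with a mean under 10 FPKM, where Mtor and Tsc1 lie, 9 were called and the smallest called finite difference was 1.85-fold. From 10 to 20 FPKM, the range of Akt1 and Akt2, 8 of 2121 were called, from 1.96-fold upward. From 20 to 50 FPKM, where Pik3r1, Inpp5d, Tsc2 and Rheb lie, 18 of 2142 were called, from 1.77-fold, and from 50 to 100 FPKM, with Pik3cd, 9 of 776 were called, from 1.66-fold. All 9 genes differed by less than the smallest called difference of their range, so no difference of their size was called at their level.

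**Figure D2:**
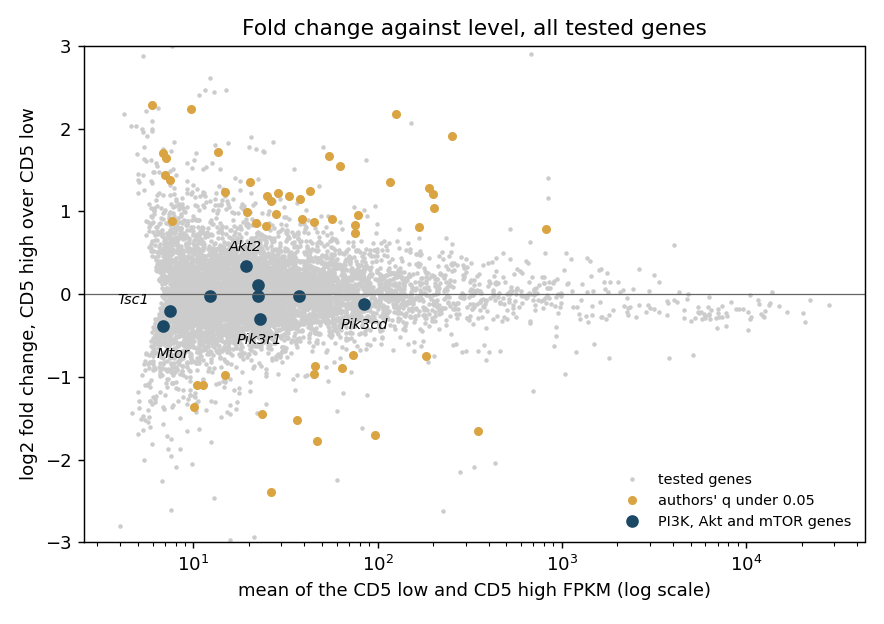
Log2 fold change (CD5 high over CD5 low) against the mean FPKM of the groups on a log axis, for the tested genes with a finite fold; 17 genes beyond 3 log2 units are not drawn. The 9 genes (dark points) lie between -0.38 and 0.34, inside the cloud of tested genes and nearer to 0 than the genes with the authors' q under 0.05 around them.

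The genes lie on 8 chromosomes, with Mtor and Pik3cd together on chromosome 4. In mm10, the build of the submitters' processing notes, the table places Mtor at chromosome 4, 148448582 to 148557685, and Pik3cd at 149649168 to 149701629, 1.09 megabases further on and on the opposite strand in the GENCODE annotation. Pik3r1 lies at chromosome 13, 101680762 to 101768217, Inpp5d at chromosome 1, 87620312 to 87720508, and Rheb at chromosome 5, 24802823 to 24842361. Akt1 lies at chromosome 12, 112653821 to 112674276, Akt2 at chromosome 7, 27591560 to 27639453, and Tsc1 at chromosome 2, 28641243 to 28691167. The locus given for Tsc2, chromosome 17, 24549950 to 24632629, is wider than the gene, which GENCODE places at 24595816 to 24632630, and the table gives Tsc2 and its neighbour Pkd1 the same locus. Their exons share 693 bases on opposite strands, and the library kit named in the labels does not mark strand, so reads from this stretch cannot be assigned to one gene and the value of Tsc2 is uncertain to that extent. Pkd1, the polycystin gene, had 7.77 and 7.54 FPKM by the authors' deposited table (q = 0.979). No other of the 9 genes shared annotated exon bases with another gene. The longest annotated coding transcripts ran from 1784 bases for Rheb to 8564 bases for Mtor.

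Beside the 9 genes, 128 further genes of the pathway were listed by role, and 87 of them were tested. Of these, 1 rose, Tbc1d4, and none fell at the authors' q under 0.05. At an unadjusted p under 0.05 there were 6 higher and 4 lower, Tbc1d4 included, which is 11.5% of the 87 against 10.3% of all tested genes (5.58% higher and 4.70% lower). These shares are close to the background. The values of the 87 genes were higher in CD5 high for 49 and lower for 38, with a median log2 fold change of 0.05. Over all tested genes 3561 were higher and 3691 lower. Some of the 87 genes lay under 6.82 FPKM in only CD5 low or only CD5 high. Such genes could be listed only with the higher value in the other group.

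Tbc1d4 (AS160), a substrate of Akt that controls the delivery of glucose transporters to the cell surface in fat and muscle, rose from 39.5 to 74.2 FPKM in the authors' deposited table, or 1.88-fold (log2 fold change 0.91, p = 5e-05, q = 0.0110). No tested gene had a smaller p, and Cd5, Ctla4 and Cd74 were among the genes with the same p and q. Among the 6 tested Akt substrates Tbc1d4 was the only gene past the test, and the list's median was 0.12. Foxo1, the Akt substrate most studied in T cells and the most abundant of the list, had 106 and 90.2 FPKM in the authors' deposited table (log2 fold change -0.23, q = 0.694). Bad, a cell death gene of the list, had 8.08 and 14.2 FPKM by the authors' deposited table (q = 0.616).

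Of 6 tested genes of receptors, adaptors and other proteins around PI3K recruitment, none passed q under 0.05. At an unadjusted p under 0.05 there were 2 (33.3%, against 10.3% of all tested genes), in opposite directions. Icos, a costimulatory receptor whose cytoplasmic tail binds PI3K, had 100.1 FPKM for CD5 low against 156 FPKM for CD5 high by the authors' deposited table (log2 fold change 0.64, p = 0.00065, q = 0.0714). Trat1, a transmembrane adaptor associated with the T cell receptor, had 90.3 and 39.3 FPKM by the authors' deposited table (log2 fold change -1.20, p = 0.00245, q = 0.143). Cd28, the main costimulatory receptor of naive T cells, was among the genes that did not pass, with 121 and 130 FPKM by the authors' deposited table (q = 0.895).

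None of the 6 tested PI3K subunit genes changed (median log2 fold change -0.004), and none of the 12 phosphoinositide phosphatases and PI3K inhibitors did (median 0.02, with 1 at an unadjusted p under 0.05). That gene was Mtmr1, a myotubularin-related lipid phosphatase, with 7.43 and 4.02 FPKM by the authors' deposited table (log2 fold change -0.89, p = 0.0205, q = 0.370). Inpp4b, a phosphatase that acts one step after SHIP-1, was the most abundant of that list, with 99.3 and 103 FPKM by the authors' deposited table (q = 0.950). Among the 10 tested genes of Akt, its activating kinase and its phosphatases, no gene passed and none had an unadjusted p under 0.05 (median -0.08). The most abundant, the protein phosphatase 2A subunit gene Ppp2r5c, had 76.4 and 79.9 FPKM (q = 0.952), and the widest fold was that of Trib3, a pseudokinase reported to bind Akt, with 8.87 and 6.05 FPKM (q = 0.740), both from the authors' deposited table.

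Around Tsc and Rheb, none of 10 tested genes changed (median 0.05). Sesn1, one of the sestrins that restrain mTORC1, had 35.1 FPKM for CD5 low against 24.4 FPKM for CD5 high by the authors' deposited table (log2 fold change -0.53, p = 0.0350, q = 0.439). Stk11, which encodes the kinase LKB1 upstream of AMPK, was the most abundant, with 44.3 and 60.0 FPKM by the authors' deposited table (q = 0.973). The table gives Stk11 a locus of 672 kb on chromosome 10, 79697305 to 80369637, which 24 other rows share, so its value is uncertain. Of the mTOR complex list only 4 of 12 genes were tested, and none changed. Beside Mtor these were Rptor, the scaffold of mTORC1, with 12.8 and 10.9 FPKM (q = 0.799), Rictor, the scaffold of mTORC2, with 31.6 and 25.2 FPKM (p = 0.0998, q = 0.593), and Mapkap1, another mTORC2 subunit, with 13.9 and 15.4 FPKM (q = 0.905), all from the authors' deposited table. Mtor, Rptor and Rictor were thus lower in CD5 high and Mapkap1 higher, and the median of the 4 was -0.28. The level of Rictor was 2.48 times that of Rptor in CD5 low and 2.31 times in CD5 high.

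The list of the Rag GTPases, the Ragulator and amino acid sensing covers genes around the recruitment of mTORC1 to the lysosome. Its 16 tested genes had a median of -0.02 and no change at q under 0.05. Lamtor5, a Ragulator subunit, had 47.0 and 80.9 FPKM in the authors' deposited table (log2 fold change 0.78, p = 0.0109, q = 0.299), while Lamtor2, the most abundant subunit, had 92.9 and 87.1 FPKM (q = 0.956) there. The other Ragulator subunit genes Lamtor1, Lamtor3 and Lamtor4 did not follow Lamtor5 in size, with log2 fold changes of -0.03, -0.01 and 0.26 by the authors' deposited table.

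Among 11 tested mTORC1 effectors no gene passed q under 0.05, and 3 (27.3%, against 10.3% of all tested genes) were at an unadjusted p under 0.05. Eif4ebp1, a repressor of translation that mTORC1 inactivates by phosphorylation, had 3.42 FPKM for CD5 low against 18.1 FPKM for CD5 high by the authors' deposited table (log2 fold change 2.40, p = 0.0151, q = 0.344). Its CD5 low value lay under the 6.82 FPKM that every tested gene reached in CD5 low or CD5 high. At this value, Eif4ebp1 could be listed only with the higher value in CD5 high. The paralog Eif4ebp2 had the reverse order, with 31.3 and 20.2 FPKM (log2 fold change -0.63, p = 0.0424, q = 0.460), and the cap-binding protein gene Eif4e that both bind had 15.6 and 23.2 FPKM (log2 fold change 0.57, p = 0.0387, q = 0.450) in the authors' deposited table. The ribosomal protein gene Rps6, whose product is phosphorylated downstream of mTORC1, was the most abundant, with 1813 and 1502 FPKM by the authors' deposited table (q = 0.616).

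Of 15 tested genes that mTORC1 is known to induce, none changed at q under 0.05. The value was higher in CD5 high for 12 and lower for 3, against 3561 higher and 3691 lower over all tested genes. The list's median was 0.17, against -0.01 over all tested genes. Over the 8 genes of the list with a mean of at least 20 FPKM it was 0.11. Hif1a, the hypoxia-inducible factor that promotes glycolysis, had 38.9 and 59.7 FPKM in the authors' deposited table (log2 fold change 0.62, p = 0.00255, q = 0.147). Atf4, a factor of amino acid synthesis and stress and the most abundant of the list, had 122 and 106 FPKM by the authors' deposited table (q = 0.772). The sterol synthesis genes Hmgcs1 and Sqle had log2 fold changes of 0.56 (q = 0.627) and 0.57 (q = 0.644), and Myc one of -0.23 (q = 0.803), by the authors' deposited table. In CD5 low that table gives Hmgcs1 6.78 and Sqle 6.72 FPKM, under the 6.82 FPKM that every tested gene reached in CD5 low or CD5 high. At these values, both could be listed only with the higher value in CD5 high.

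**Figure D3:**
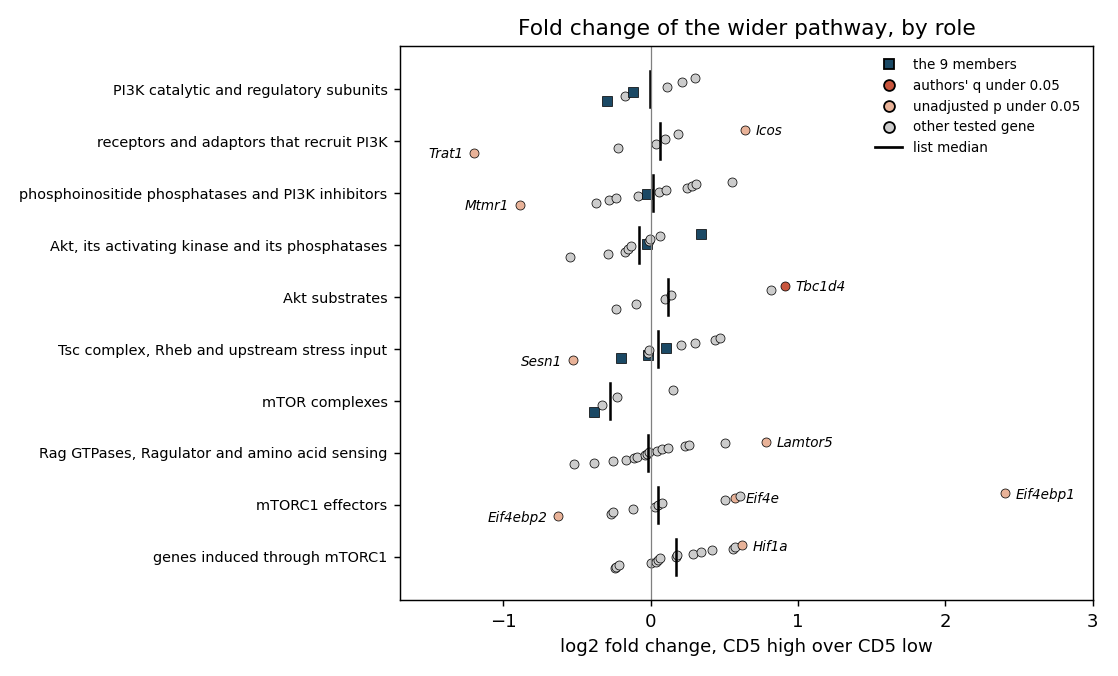
Log2 fold change (CD5 high over CD5 low) of every tested gene of the 10 role lists, 1 point per gene, with the list median as a vertical line; squares are the 9 genes and named points have an unadjusted p under 0.05. The medians lie between -0.28 (mTOR complexes) and 0.17 (genes induced through mTORC1), and Tbc1d4 is the single point with q under 0.05.

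Cell identity was read from marker lists. All 7 tested T cell markers lay between -0.26 and 0.20 on the log2 scale without a change, with 248 and 243 FPKM for Cd4 by the authors' deposited table, and no CD8 marker was tested. Cd5, the gene of the sorted protein, was higher in CD5 high, 4.54-fold by the authors' deposited table (q = 0.0110), which is no finding. Over all tested genes, 0.538% rose and 0.221% fell. Of the regulatory T cell list, 5 of 7 tested genes rose: Ctla4, Folr4, Ikzf2, Tnfrsf4 and Tnfrsf18. The list summed to 471 FPKM for CD5 low against 1003 FPKM for CD5 high. Foxp3 had 1.10 and 12.3 FPKM by the authors' deposited table (q = 0.298). Of 8 tested markers of macrophages, monocytes and dendritic cells 5 fell, with sums of 1234 and 634 FPKM over the 8. These 5 were Cd74, H2-Aa, H2-Ab1, H2-Eb1 and Fcer1g, and Fcer1g is listed at 0 in CD5 high. Cd74 had 530 and 168 FPKM by the authors' deposited table. The other tested markers did not pass q under 0.05. In that table these were Cst3 (295 and 242 FPKM, q = 0.680), Apoe (11.9 and 6.65 FPKM, q = 0.662) and Ctss (133 and 144 FPKM, q = 0.904). Endocrine genes summed to 321 and 2794 FPKM, and of 5 tested 1 rose, Ins1. Ins2 carried most of that sum, with 26.7 and 2395 FPKM in the authors' deposited table (q = 0.193), while Sst went the other way, with 263 and 6.86 FPKM (q = 0.0714), as did Ppy, with 19.4 and 5.63 FPKM (q = 0.616). Exocrine genes summed to 2072 and 1857 FPKM (1 of 18 fell). A single gene each stood for B cells (Cd79b, 11.0 and 14.0 FPKM), for NK and gamma-delta T cells (Tyrobp, 21.8 and 3.94 FPKM) and for endothelial and stromal cells (Pecam1, 21.3 and 16.6 FPKM), by the authors' deposited table. In CD5 low, Foxp3 and Ins1 lay under the 6.82 FPKM that every tested gene reached in CD5 low or CD5 high. Fcer1g, Apoe, Ppy and Tyrobp lay under it in CD5 high. At these values, each of these genes could be listed only with the higher value in the other group. The part of these cells in the values of Tbc1d4, Icos and the other pathway genes was not tested.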

How the data were processed

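CD5 high and CD5 low effector T cells were profiled by RNA sequencing (2 libraries each). Per the submitters' processing notes, TopHat 1.0.0 and Cufflinks were used with mm10; annotation and library scaling: not given in the sources used here. Per the file headers, those of a Cuffdiff gene test, the authors deposited 1 FPKM value per gene and group, a log2 fold change (the log2 ratio of the FPKM values to within 5.1e-05), a test score (not used here), and for each gene a p-value and q-value. Of 7404 rows, 7252 with the status OK count as tested; 152 were LOWDATA, and 1 further line is not analysed here. Depth is unknown, and whole reads were not sought in combined values. The labels do not say whether libraries came from separate animals, so the spread behind the authors' p-values may be technical.

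Changed, risen or fallen means the authors' q under 0.05 over all tested genes. Fold changes have no pseudocount. The 9 genes, 10 role lists and 9 marker lists were chosen with earlier results of these data known. Of each role list, genes with q or p under 0.05, the largest log2 fold change and the highest mean FPKM were named by rule; Pik3ca, Inppl1, Bad, Cd28, Rptor, Mapkap1, Lamtor1, Lamtor3, Lamtor4, Hmgcs1, Sqle, Myc and Pkd1 were added as partners or after their values were seen. No gene was named for likeness of pattern, since 2 group values give none. Planned fits on single libraries could not be made. Overlapping genes came from GENCODE M21 (GRCm38, the assembly of mm10). Alternatives were a recomputed Benjamini-Hochberg adjustment, a minimum mean of 20 FPKM, leaving out markers of other cells, q under 0.1, p under 0.05, median scaling, quantile normalization and pseudocounts of 1 and 5. Python 3.11.15 with pandas 2.3.3 and numpy 2.4.6 was used and tested on simulated data. A few results on single genes are not reported here.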

Additional observations from a re-analysis of the deposited data

How the results depend on the processing

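None of the 9 genes was called under any alternative run: a recomputed adjustment, only genes with a mean of at least 20 FPKM (5 of the 9 remained), without markers of other cells, q under 0.1 and an unadjusted p under 0.05. All 36 fold changes recomputed by median scaling, quantile normalization and pseudocounts of 1 and 5 had the sign of the deposited value, and their median lay between -0.05 and -0.02. A pseudocount of 5 moved Mtor from -0.38 to -0.22 and Tsc1 from -0.20 to -0.12, so that Akt2 (0.27) and Pik3r1 (-0.24) then differed more than Mtor. Of the wider pathway, 1 gene (Tbc1d4) was called as deposited and under the first 3 of these alternatives, 2 (Tbc1d4 and Icos) at q under 0.1 and 10 at an unadjusted p under 0.05. Counting only genes with a mean of 20 FPKM or more, the median of the PI3K subunits was -0.21 (2 genes) and that of the mTORC1 effectors -0.19 (6 genes), over fewer genes. Over all tested genes, 93 were called at q under 0.1 and 746 at an unadjusted p under 0.05. The titles number the libraries 3 and 4 in both groups. No paired analysis was possible because each group has 1 combined value, and for the same reason no library could be left out. Genes that stayed under 6.82 FPKM in both groups are not covered. A gene under this level in only CD5 low or only CD5 high could be listed only with the higher value in the other group. Among the named pathway genes, Mtor, Mtmr1 and Trib3 were under it in CD5 high. Eif4ebp1, Inppl1, Hmgcs1 and Sqle were under it in CD5 low.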

Other observations

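The genes of the translation repressors that bind Eif4e differed in opposite directions: Eif4ebp1 took 9.84% of the summed Eif4ebp1 and Eif4ebp2 FPKM in CD5 low and 47.2% in CD5 high, while the sum was 34.8 and 38.4 FPKM in the authors' deposited table. The pair was singled out after its values were seen, neither gene passed the test over all genes (q = 0.344 and q = 0.460), and the share was not tested. The CD5 low value of Eif4ebp1, 3.42 FPKM in the authors' deposited table, lay under the lowest level covered (6.82 FPKM). Eif4ebp1 was thus covered through CD5 high alone, and its share and direction rest on a low value. Stk11 had a larger fold change (log2 0.44) than any of the 9 genes and yet an unadjusted p of 0.847 in the authors' deposited table, above the p of 0.161 of Mtor. The row of Stk11 has a locus of 672 kb that 24 other rows of the table share. Of the pathway genes tested, 8 have a locus shared with at least 1 other row, Tsc2 among them.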
